A study of Mus musculus with 16 samples.

Results

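The Sult2a family of mouse liver comprises cytosolic sulfotransferases that are encoded by a cluster of closely related genes on chromosome 7. Its members were taken as the rows of the count table whose Ensembl identifiers belong to Sult2a1 through Sult2a8. All 8 were present among the 13006 genes of the table, all 8 passed the filter on low counts, and they were followed one by one and as a summed level, because near-identical members can share reads. Cytosolic sulfotransferases move a sulfonate group from the donor PAPS onto small molecules, and the Sult2a enzymes act on hydroxysteroids such as dehydroepiandrosterone and on bile acids. Sulfation makes a bile acid more water-soluble and easier to excrete, and the xenobiotic receptors CAR and PXR and the bile acid receptor FXR have been studied as regulators of these genes. Sult2a1 is known for much higher expression in female than in male mouse liver.

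Poly(A) RNA sequencing measured liver messenger RNA in 16 libraries from mice with the genotype Humanized PXR-CAR-CYP3A4/3A7, shared by all groups, with 4 libraries in each of 4 groups. EM mice received ethinylestradiol (EE), a synthetic estrogen used to induce cholestasis, by subcutaneous injection at 10 mg/kg for 7 days, and MI763F, a code-named compound, by oral gavage at 2.5 mg/kg for 6 days from day 2. EV mice received the same EE treatment without MI763F, CM mice received MI763F without EE, and CV mice received the propylene glycol vehicle. MI763F was given in DMSO, PEG300 and corn oil, and it is not stated if EV and CV mice were gavaged with that mixture. Age, sex and the way the human genes were introduced are not given either. Xist was detected at 38.5 to 67.5 CPM (counts scaled to library size) in every library, and 0 of the 4 Y-linked genes looked up were in the table. Library depth was 14115384 to 21473227 estimated counts. Nothing in the labels ties a library to its own animal, so p-values measure only the spread between these samples.

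EM replicate 1 and CM replicate 2 stood apart and bear on the family, so results that rest on them are given with and without them. EM replicate 1 lay at 62.6 on the first principal component, against 37.1 to 46.7 for the other EM libraries and 66.7 to 75.4 for EV. CM replicate 2 lay at -58.9 on the second component, against -16.1 to 45.2 for the other 7 libraries without EE. The hepatocyte markers, summed over 7 measured of 8 listed, were at 32550 to 50327 CPM in EM, 29365 to 37537 CPM in EV, 80297 to 109550 CPM in CM and 82458 to 108749 CPM in CV. The 7 macrophage markers summed to 762 to 1088 CPM in EM, 838 to 1046 CPM in EV, 150 to 294 CPM in CM and 150 to 382 CPM in CV. The part of these shifts in the Sult2a levels was not tested, and in bulk liver fewer hepatocytes and less RNA per hepatocyte cannot be told apart.

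The coding sequences show which members can be separated by counting. Among Sult2a1 to Sult2a6 pairwise coding identity ran from 88.0% to 97.9%, with a median of 93.8% over 15 pairs, in the GENCODE M21 mouse transcripts. Sult2a1 and Sult2a2 were the closest pair, at 97.9% over the shorter coding region annotated for Sult2a2, of 194 codons against 285 for Sult2a1. Sult2a7 was 79.9% to 82.3% identical to these 6, and Sult2a8 was 69.5% to 75.2% identical to them. Of the 75-base words of each coding sequence, 31.3% were shared with another gene for Sult2a2, 16.7% for Sult2a1, 16.5% for Sult2a5, 13.4% for Sult2a4, 2.17% for Sult2a3, 1.91% for Sult2a6 and 0% for Sult2a7 and Sult2a8. Of the 31-base words, 67.6% were shared for Sult2a2, 57.1% for Sult2a1, 48.1% for Sult2a4 and 47.7% for Sult2a5. The shares were 29.5% for Sult2a3, 17.6% for Sult2a6, 0.219% for Sult2a7 and 0% for Sult2a8. The split of reads between Sult2a1 and Sult2a2, and between Sult2a4 and Sult2a5, is therefore uncertain. Sult2a3 and Sult2a6 also share many words at the shorter length, whereas Sult2a7 and Sult2a8 carry nearly all their own sequence.

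The promoters were read because the members moved together. Promoters for 5 of the 8 members (Sult2a3, Sult2a4, Sult2a5, Sult2a6 and Sult2a8, the last with 2 starts) were found in RefSeq for GRCm38.p6, and the 250 bases before each start were searched on both strands. In rodent Sult2a promoters an inverted repeat of nuclear receptor half-sites without a spacer has been described as an element for FXR, PXR and CAR. The aligned stretches follow 5′ to 3′ on the gene's strand. Capitals mark the core GTCATGAACT of such a repeat or, in Sult2a3, its counterpart, which carries C3A counted from 1 at the 5′ end of the core. In Sult2a8, which lacks the core, capitals mark the half-site AGGTCA.
Sult2a3 (chr7:14123137-14123256, minus strand): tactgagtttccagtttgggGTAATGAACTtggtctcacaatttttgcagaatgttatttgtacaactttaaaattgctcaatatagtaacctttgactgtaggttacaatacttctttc
Sult2a4 (chr7:13989733-13989838, minus strand): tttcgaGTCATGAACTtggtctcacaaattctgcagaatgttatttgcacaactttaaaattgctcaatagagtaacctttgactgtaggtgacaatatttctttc
Sult2a5 (chr7:13623782-13623901, plus strand): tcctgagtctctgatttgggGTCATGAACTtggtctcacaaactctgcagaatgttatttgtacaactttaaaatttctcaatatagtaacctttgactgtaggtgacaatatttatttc
Sult2a6 (chr7:14254980-14255099, minus strand): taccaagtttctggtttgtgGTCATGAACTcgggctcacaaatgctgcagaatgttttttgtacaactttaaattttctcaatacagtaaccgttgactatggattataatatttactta
Sult2a8 (chr7:14438576-14438681, minus strand): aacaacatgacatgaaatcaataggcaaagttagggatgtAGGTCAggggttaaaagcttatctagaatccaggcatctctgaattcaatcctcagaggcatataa

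The core began at -244 in Sult2a4, -165 in Sult2a5 and -209 in Sult2a6 from the start, and the Sult2a3 counterpart at -188. It occurred in 21 of 32851 mouse promoters of the same length (0.0639%), and the longer GGGTCATGAACT of Sult2a5 in 2 (0.00609%); both were looked for after the promoters had been read. The 4 stretches of Sult2a3 to Sult2a6 were 80.0% to 93.4% identical, so these are related sequences and not independent occurrences. Of the other motifs searched, AGTTCA lay in the promoters of Sult2a3, Sult2a4, Sult2a5 and Sult2a6 and in 11.8% of all promoters. It lay within the core or, in Sult2a3, its counterpart, and once more in Sult2a6. AGGTCA lay in Sult2a8 at -164 and -90, from only 1 of its starts, and in 4607 of the 32851 promoters. The STAT5 motif TTCNNNGAA, in 7.02% of all promoters, was in no member's window. The 36 combinations of AGGTCA and AGTTCA as direct repeats spaced by 1, 3, 4 or 5 bases, everted repeats spaced by 6 or 8 and inverted repeats spaced by 0, 1 or 3 were each in at most 0.0335% of all promoters and in no member's window. A match is a run of letters and not a measured binding site.

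In CV livers, the summed Sult2a level was 3619, 3858, 3366 and 3649 CPM, and Sult2a1 led the family at 1554 ± 180 CPM (SD, n = 4). The deposited values look already scaled to gene length: over 605 genes listed at 0 in some library, the smallest nonzero value fell with exon length at a log10 slope of -0.97. CPM was therefore used to compare members, and was not divided by length again. Sult2a2 was at 758 ± 57.8 CPM, Sult2a7 at 532 ± 114 and Sult2a5 at 367 ± 42.2, and the CV libraries of neighbours in this order did not overlap. The other 4 were lower, with Sult2a6 at 122 ± 28.3 CPM, Sult2a8, which in mouse liver is known for sulfating primary bile acids, at 115 ± 34.0, Sult2a3 at 97.1 ± 28.3 and Sult2a4 at 77.9 ± 11.2. Among these 4, the CV libraries of neighbours overlapped, so their order is not settled.

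The family was chosen by its low level in EV against CV and its higher level in EM against EV, so its values with EE are a description and carry no test. Counts of members past the adjusted p threshold, or without overlap, in comparisons with EE only describe these values. The choice of the family favoured such counts, so they are not evidence of a change. The summed Sult2a level was 324, 1032, 1130.3 and 937 CPM in EM, 103, 63.2, 96.8 and 106 CPM in EV, and 3907, 4224, 4583 and 4081 CPM in CM. No group overlapped another, CM and CV included. EV livers held 2.55% of the CV mean, EM livers 23.6%, and CM livers 116%. The EM mean was 9.27 times the EV mean, or 11.2 times without EM replicate 1.

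Sult2a1, a hydroxysteroid sulfotransferase and the member with the highest level in CV, had 89.8, 523, 559 and 445 CPM in EM, 25.8, 12.0, 21.4 and 24.5 CPM in EV, 1707, 2309, 2129 and 1839 CPM in CM, and 1685, 1620.4, 1288 and 1621 CPM in CV. Each group was separate from every other, and EM replicate 1 was the lowest of its group by far. Sult2a2 had 132, 286, 306 and 272 CPM in EM, 47.0, 26.0, 42.5 and 47.6 CPM in EV, 875, 1121, 959 and 865 CPM in CM, and 701, 803, 715 and 812 CPM in CV. It showed the same order of groups as its near-identical neighbour, with a shallower drop under EE. Sult2a5 had 42.6, 74.6, 101 and 70.9 CPM in EM, 7.75, 7.25, 9.12 and 8.35 CPM in EV, 362, 493, 489 and 413 CPM in CM, and 396, 403, 311 and 358 CPM in CV. Its CM and CV libraries overlapped, and every EM library was above every EV library.

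Sult2a3, Sult2a4 and Sult2a6 were minor members in all groups. Sult2a3 had 8.33, 61.8, 62.0 and 40.2 CPM in EM, 4.96, 5.69, 4.53 and 6.93 CPM in EV, 141, 31.5, 126 and 188 CPM in CM, and 120.4, 79.0, 67.1 and 122 CPM in CV. EM replicate 1 was close to the EV libraries, and CM replicate 2 was below all CV libraries. Sult2a4 had 11.2, 28.6, 28.1 and 30.9 CPM in EM, 4.78, 2.38, 4.71 and 5.04 CPM in EV, 84.8, 104, 91.7 and 79.6 CPM in CM, and 70.3, 89.0, 66.4 and 85.9 CPM in CV. Sult2a6 had 19.5, 31.3, 36.1 and 41.4 CPM in EM, 5.43, 3.84, 4.89 and 4.73 CPM in EV, 104, 157, 137 and 138 CPM in CM, and 131, 157, 90.2 and 112 CPM in CV. For both, EM lay between EV and the overlapping CM and CV groups.

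Sult2a7 and Sult2a8, the members with their own sequence, had an extreme value in CM replicate 2. Sult2a7 had 9.66, 12.4, 19.4 and 16.4 CPM in EM, 2.23, 1.90, 3.20 and 3.57 CPM in EV, 554, 0.705, 562 and 449.9 CPM in CM, and 434, 576, 673 and 444 CPM in CV. CM replicate 2 held 11 estimated counts of it and was below every other library of the study, EV included. Sult2a8 had 11.5, 14.1, 19.1 and 20.2 CPM in EM, 5.24, 4.18, 6.40 and 5.46 CPM in EV, 78.7, 7.63, 88.1 and 108 CPM in CM, and 81.0, 131, 156 and 94.2 CPM in CV. The same CM library was again far below its group, at a level between EM and EV.

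**Figure D1:**
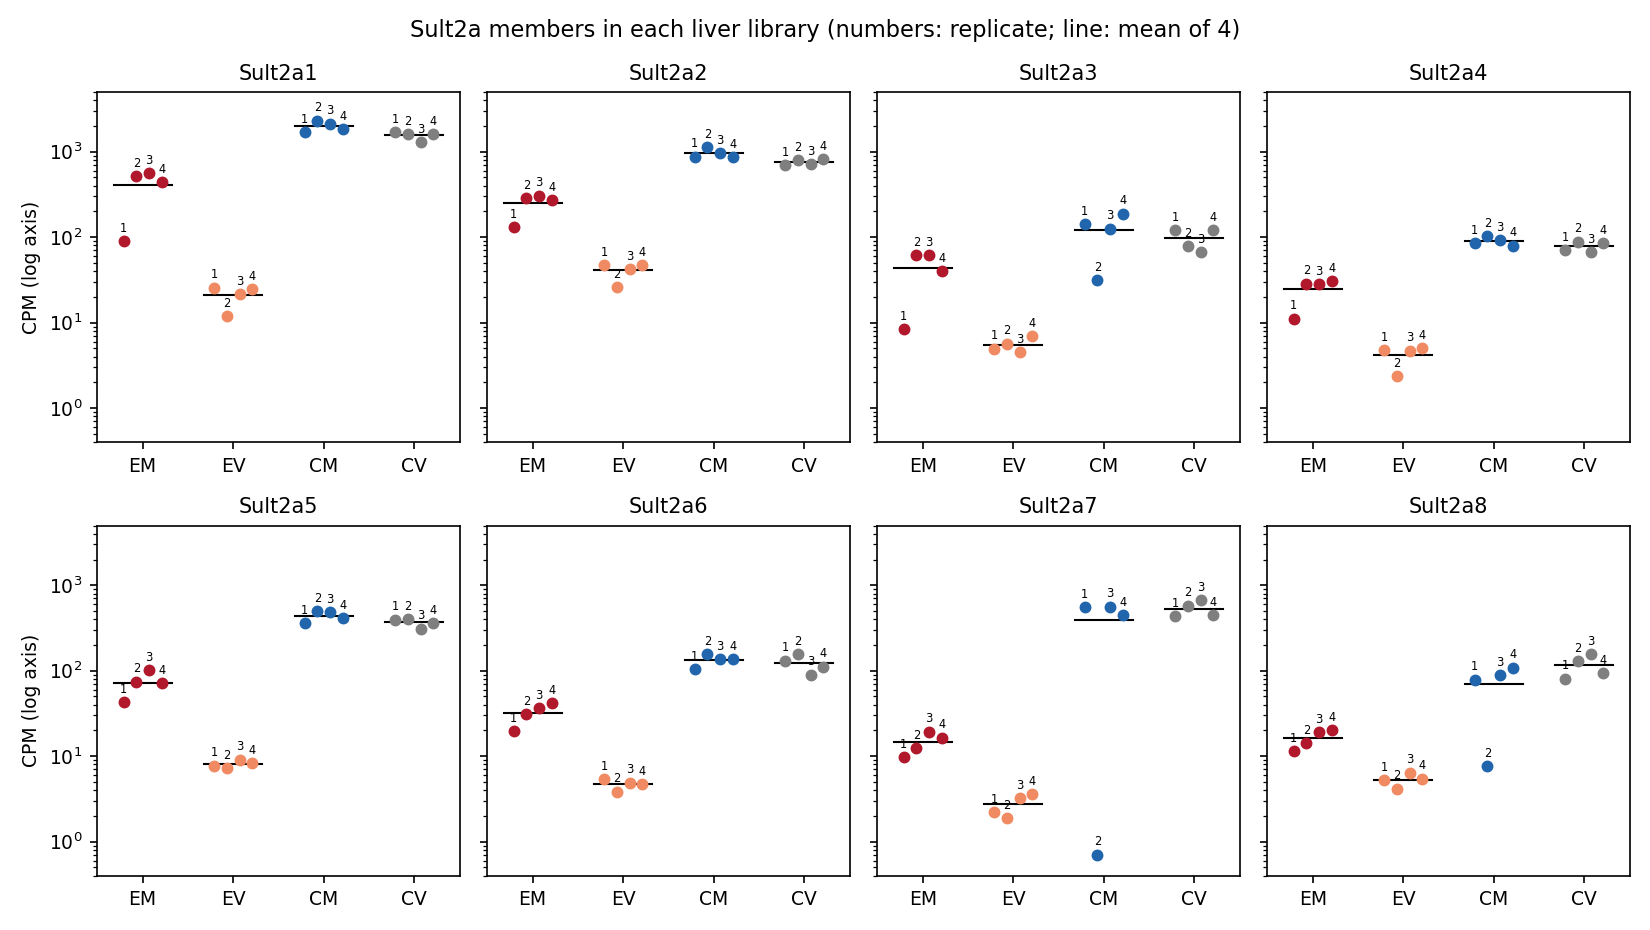
Level of each Sult2a member in CPM on a log axis, with groups EM, EV, CM and CV from left to right; each point is a library with its replicate number, and the line is the mean of 4. The EM mean lies between the EV mean and those of CM and CV for every member, EM replicate 1 is the lowest EM library in all 8 panels, and CM replicate 2 drops to 0.705 CPM for Sult2a7.

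Under EE alone, every member was lower in EV than in CV. The family was chosen by this difference, so the counts of members below are a description. The log2 fold change (± SE) was -7.61 ± 1.22 for Sult2a7, -6.21 ± 0.49 for Sult2a1 and -5.50 ± 0.23 for Sult2a5, the deepest differences. It was -4.69 ± 0.25 for Sult2a6, -4.44 ± 0.60 for Sult2a8, -4.22 ± 0.26 for Sult2a2, -4.20 ± 0.30 for Sult2a4 and -4.13 ± 0.63 for Sult2a3. All 8 met the adjusted p threshold of 0.05 in the lower direction, where 24.9% of the 12918 genes tested did (50.4% in either direction), and no member's groups overlapped, as for 47.3% of genes. The median over members was -4.57 against 0.00 for all genes. The SE of Sult2a7 was 0.29 without CM replicate 2, since all groups share the estimate of the spread. With library totals in place of composition factors, the median of all genes shifted by 0.48 (log2) and the member differences ran from -3.66 for Sult2a3 to -7.13 for Sult2a7.

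With MI763F added to EE, every member was higher in EM than in EV. This difference also chose the family, so the counts of members below are a description and not a test. The log2 fold change was 4.27 ± 0.45 for Sult2a1, 3.15 ± 0.21 for Sult2a5, 2.96 ± 0.61 for Sult2a3 and 2.76 ± 0.23 for Sult2a6. It was 2.61 ± 0.24 for Sult2a2, 2.55 ± 0.29 for Sult2a4, 2.42 ± 1.04 for Sult2a7 and 1.62 ± 0.56 for Sult2a8. The threshold was met in the higher direction by 6 members (all but Sult2a7 and Sult2a8), against 1.51% of all genes (1.69% in either direction), and by all 8 without CM replicate 2, when it was met by 2.47% of genes in either direction. No member's groups overlapped, as for 10.5% of genes. With each library left out in turn, between 5 and 8 members met it. Ranked by log2 fold change, Sult2a1 was number 25 of 12918 genes and Sult2a8 number 97.

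EM replicate 1 had less of each member than any other EM library. Its Sult2a sum was 8.95% of the CV mean, against 28.5% for the mean of the other 3 EM libraries. It held 3.51 times the EV mean of the sum, and the other 3 averaged 3.18 times its level. The gap was widest for Sult2a3, at 6.56 times, and Sult2a1, at 5.66 times, and narrowest for Sult2a8, at 1.55 times. It was also the lowest EM library for 9 of 16 CAR-inducible genes, and for 30.1% of all genes tested. Cyp2b10, one of the other 7 of these genes, was at 294, 260.0, 256 and 324 CPM in EM. Without EM replicate 1 the log2 fold change over EV was 4.60 ± 0.23 for Sult2a1 and 1.75 ± 0.61 for Sult2a8, and 6 members met the threshold against 3.44% of genes.

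**Figure D2:**
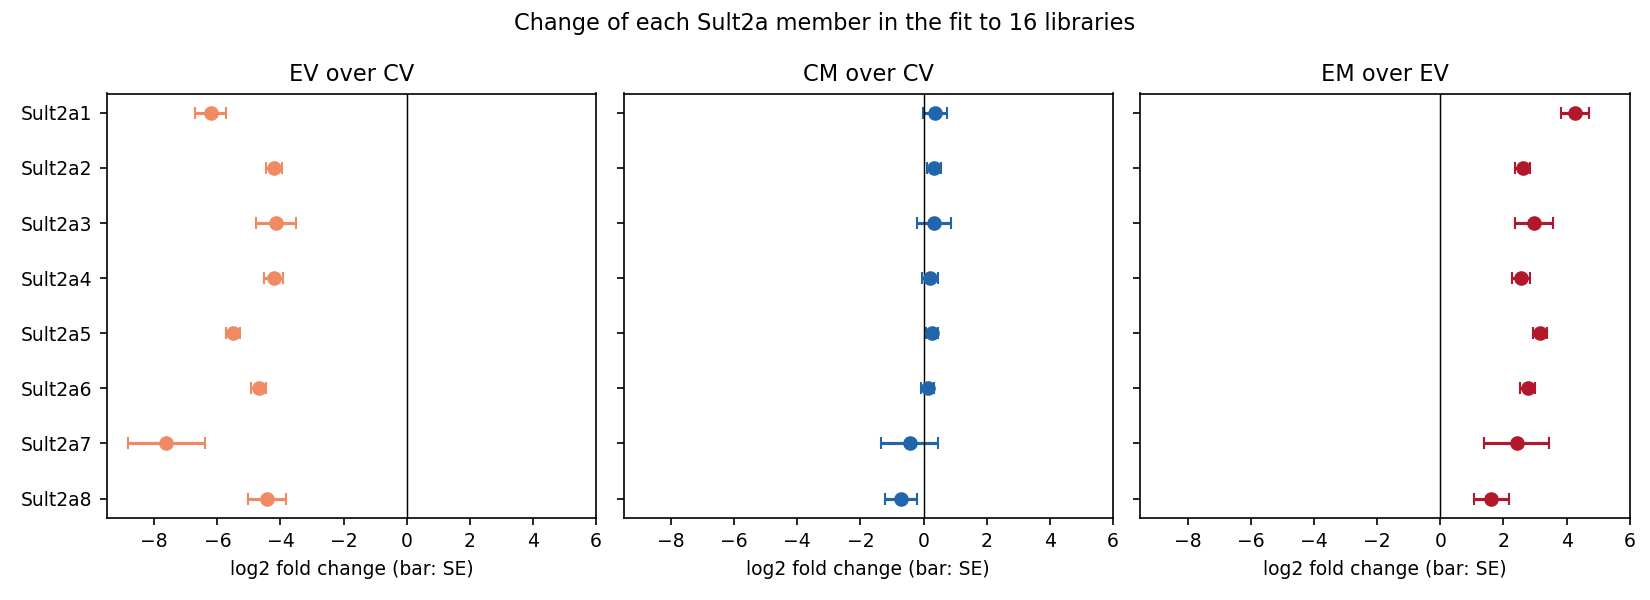
Log2 fold change of each Sult2a member, with its SE as a bar, for EV over CV, CM over CV and EM over EV in the fit to 16 libraries. All members lie below 0 for EV over CV and above 0 for EM over EV, while for CM over CV they lie between -0.71 and 0.36.

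EM livers remained below the livers without EE. Against CV the log2 fold change ran from -5.20 ± 1.08 for Sult2a7 to -1.17 ± 0.55 for Sult2a3, with -1.94 ± 0.41 for Sult2a1. All members but Sult2a3 met the threshold in the lower direction (7 of 8, against 20% of all genes and 40.6% in either direction), and no member's groups overlapped (37.5% of genes). Sult2a7 averaged 2.72% of its CV mean in EM, Sult2a8 14.1% and Sult2a5 19.7%, whereas Sult2a1 averaged 26.0%, Sult2a2 32.9% and Sult2a3 44.3%. Against CM the log2 fold change ran from -4.76 ± 1.05 for Sult2a7 to -1.50 ± 0.55 for Sult2a3, 8 of 8 met the threshold in the lower direction (18.6% of genes, 38.1% in either direction), and 5 of 8 did not overlap (35.4% of genes). With each library left out in turn, 13 of 16 fits had 7 members past the threshold, with Sult2a3 the one lost. The members that overlapped were Sult2a3, Sult2a7 and Sult2a8, those low in CM replicate 2. The difference between the MI763F change with EE and that without EE was 2.28 ± 0.32 for Sult2a2 at the low end and 3.91 ± 0.58 for Sult2a1 at the high end, on the log2 scale. The low end was Sult2a8 at 1.95 ± 0.33 without CM replicate 2, and Sult2a8 at 2.08 ± 0.31 without CM replicate 2 and EM replicate 1. These comparisons share libraries with those above, so the counts of members are again a description and not a test.

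The make-up of the family was not the same in all groups. Sult2a1 made up 43.8% ± 10.8 of the summed CPM in EM, 22.3% ± 2.5 in EV, 47.5% ± 4.9 in CM and 42.8% ± 3.6 in CV (SD, n = 4). Sult2a2 made up 31.1% ± 6.4 in EM, 43.9% ± 1.9 in EV, 22.8% ± 2.6 in CM and 20.9% ± 1.2 in CV, so that it exceeded Sult2a1 in EV. EM replicate 1 shared this order, with 27.7% from Sult2a1 and 40.6% from Sult2a2, and the other 3 EM libraries did not. Sult2a7 made up 1.91% ± 0.76 in EM, 2.96% ± 0.56 in EV, 9.37% ± 6.37 in CM and 14.8% ± 3.7 in CV. Its share in EM was thus no closer to CV than its share in EV, unlike that of Sult2a1. The shares of Sult2a1 and Sult2a2 depend on how the counting divided reads of 2 sequences that differ at few bases.

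**Figure D3:**
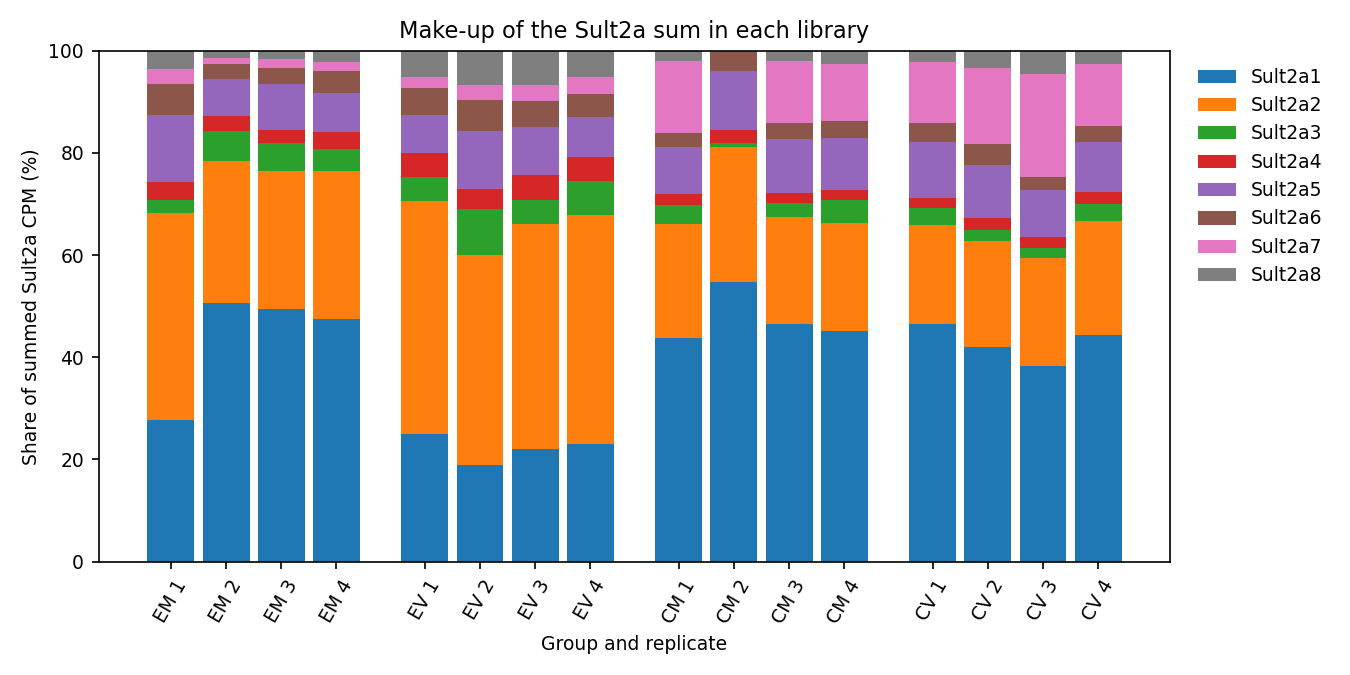
Share of each member in the summed Sult2a CPM (%) of each library, with EM, EV, CM and CV from left to right and colours for members. Sult2a2 exceeds Sult2a1 in the 4 EV libraries and EM replicate 1, and Sult2a7 is close to 0 in CM replicate 2.

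Whether MI763F changed the family without EE is the comparison that did not choose it, and 0 of the 8 members passed the test between CM and CV (edgeR's quasi-likelihood test, Benjamini-Hochberg adjustment over 12918 genes), as 0.0929% of genes did. At an unadjusted p under 0.05 the count was 0 of 8, and DESeq2 also called 0 of 8. The log2 fold change was 0.36 ± 0.39 for Sult2a1 (edgeR adjusted p = 0.819), 0.33 ± 0.22 for Sult2a2 (0.652) and 0.33 ± 0.54 for Sult2a3 (0.898). It was 0.26 ± 0.19 for Sult2a5 (edgeR adjusted p = 0.686), 0.21 ± 0.26 for Sult2a4 (0.843) and 0.13 ± 0.21 for Sult2a6 (0.891). All 4 CM libraries were above all 4 CV libraries for Sult2a1 and Sult2a2, so 2 of 8 members did not overlap, against 4.13% of genes. These p-values do not show that levels were equal. Over 24 other settings the adjusted p ran from 0.524 to 0.911 for Sult2a1 and from 0.460 to 0.827 for Sult2a2. The lowest of these came without EM replicate 1, as all groups share the estimate of the spread. The log2 fold change was then 0.36 ± 0.19 for Sult2a1 (edgeR adjusted p = 0.524) and 0.33 ± 0.15 for Sult2a2 (0.460).

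Sult2a7 and Sult2a8 were the members with a negative log2 fold change, at -0.44 ± 0.89 (edgeR adjusted p = 0.922) and -0.71 ± 0.51 (0.686), and both values rest on CM replicate 2. Without that library they were -0.03 ± 0.23 (edgeR adjusted p = 0.995) and -0.33 ± 0.23 (0.720), and Sult2a3 was at 0.64 ± 0.47 (0.740). The other 3 CM libraries averaged 740.1 times the Sult2a7 level of replicate 2, 12.0 times its Sult2a8 level and 4.82 times its Sult2a3 level. Among all 12918 genes, Sult2a7 had the widest gap between this library and the nearest of the other 7 without EE, 9.04 on the log2 scale, while Sult2a8 came 19th at 3.35. In the same library Sult2a1, Sult2a2, Sult2a4, Sult2a5 and Sult2a6 were at the highest level of all 8 libraries without EE.

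Other genes set this library apart in the same direction or the opposite one. Sult3a1, an amine sulfotransferase, was at 16.2 CPM there and between 124 and 281 CPM in the other 7, and its relative Sult3a2 was also below all others. Sult1e1, the estrogen sulfotransferase, was at 11.6 CPM there and at most 1.76 CPM in the others. Of 19 major urinary protein genes tested, 15 were below their levels in the other 7 libraries, 13 of them by more than 1 on the log2 scale. In all, 225 genes were apart by more than 1, of which 122 were lower and 103 higher, against 43 to 104 genes for the other libraries without EE. These genes were looked up after the values had been seen, and what sets the library apart was not tested.

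**Figure D4:**
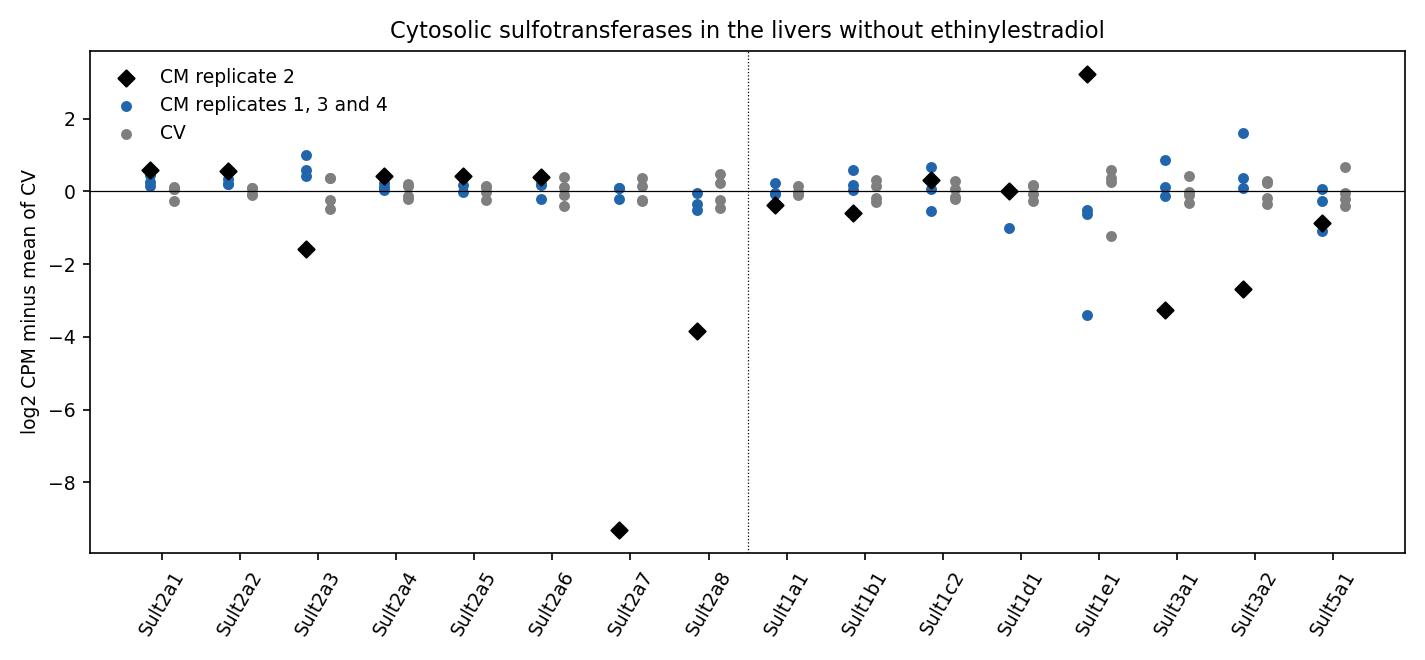
Log2 CPM minus the CV mean for the Sult2a members (left of the dotted line) and 8 other cytosolic sulfotransferases, in livers without EE; diamonds are CM replicate 2 and dots the other CM and the CV libraries. The diamond lies far below the dots for Sult2a7, Sult2a8, Sult3a1 and Sult3a2, above them for Sult1e1, and at the upper edge for Sult2a1 and Sult2a2.

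Across the 16 libraries, which share the effect of EE and of composition, log2 CPM of Sult2a1 to Sult2a6 was correlated with r between 0.912 and 0.998 (Pearson, 15 pairs, as a description). After group means were removed the median r was 0.789. Sult2a7 and Sult2a8 had r = 0.978 with each other and, after removal of group means, 0.967, or 0.761 without CM replicate 2. With the other 6 members, the r of this pair after removal of group means ran from -0.19 to 0.634. Without CM replicate 2 it ran from 0.202 to 0.662. The 5 other genes whose log2 CPM was most like the log2 Sult2a sum over the 16 libraries were Azgp1 (r = 0.989), Ugt1a1 (0.987), Vnn3 (0.984), Bche (0.982) and Cyp39a1 (0.981). Azgp1 encodes a secreted glycoprotein and averaged 997 ± 126 CPM in EM, 668 ± 55.2 in EV, 1639 ± 76.5 in CM and 1618 ± 37.9 in CV. Ugt1a1, the bilirubin glucuronosyltransferase, averaged 356 ± 98.9 CPM in EM, 161 ± 11.5 in EV, 791 ± 94.3 in CM and 738 ± 50.6 in CV.

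The other cytosolic sulfotransferases were tested in every comparison, since they did not choose the family. Of 13 listed, 8 were tested, and in EV over CV 4 fell and 2 rose (edgeR adjusted p under 0.05; 24.9% of all genes fell and 25.5% rose). Sult1a1, a phenol sulfotransferase, had 105, 170.0, 148 and 149 CPM in EM, 59.3, 45.4, 94.6 and 65.4 CPM in EV, 679, 553, 699 and 836 CPM in CM, and 700.4, 801, 706 and 664 CPM in CV. EM was above EV in every library, and both were far below CM and CV. Its log2 fold change was -3.44 ± 0.21 for EV over CV (edgeR adjusted p = 1.58e-08) and 1.11 ± 0.20 for EM over EV (edgeR adjusted p = 0.0100). Sult1c2 fell by 3.68 ± 0.32, Sult1d1 by 1.29 ± 0.23 and Sult1b1, which sulfates thyroid hormone, by 1.12 ± 0.22 in EV over CV. Sult3a2 rose by 2.33 ± 0.54 and Sult5a1 by 0.78 ± 0.26, although Sult5a1 missed the threshold without CV replicate 2, CV replicate 3 or EV replicate 3. In EM over EV only Sult1a1 of these 8 passed, against 1.69% of all genes. The count was 0 without EV replicate 1 or EV replicate 2, 2 without EM replicate 1, and 3 without EM replicate 1 and CM replicate 2. In CM over CV 0 of 8 passed by edgeR or DESeq2, with 0 at an unadjusted p under 0.05.

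Genes that supply sulfate and PAPS also moved under EE, in both directions. In EV over CV 8 of 14 fell and 2 rose (24.9% of all genes fell and 25.5% rose). Papss2, a synthase of the sulfate donor, had 64.1, 89.5, 103 and 94.2 CPM in EM, 57.7, 52.2, 55.1 and 69.1 CPM in EV, 123, 150.2, 173 and 238 CPM in CM, and 143, 186, 225 and 201 CPM in CV. The 8 libraries with EE were below the 8 without it, and its EV over CV change was -1.69 ± 0.20 (edgeR adjusted p = 5.62e-06). Papss1, the other synthase, rose by 0.89 ± 0.20. The sulfate exchanger Slc26a1 fell by 2.23 ± 0.15 and the sulfate transporter Slc26a2 rose by 2.15 ± 0.18. Of the enzymes that make sulfate from cysteine, Suox (sulfite oxidase) fell by 1.30 ± 0.14 and Cdo1 (cysteine dioxygenase) by 1.19 ± 0.18. In EM over EV only Slc26a1 of the 14 passed, against 1.69% of all genes. It was at 0.76 ± 0.15 (edgeR adjusted p = 0.0182), and the adjusted p became 0.0516 with library totals. The count was 0 without EV replicate 1, 2 or 4 or EM replicate 3 or 4, 2 without EM replicate 1, and 3 without EM replicate 1 and CM replicate 2. In CM over CV 0 of 14 passed by edgeR or DESeq2, with 1 at an unadjusted p under 0.05. With library totals, the EV over CV count was 6 lower and 5 higher.

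**Figure D5:**
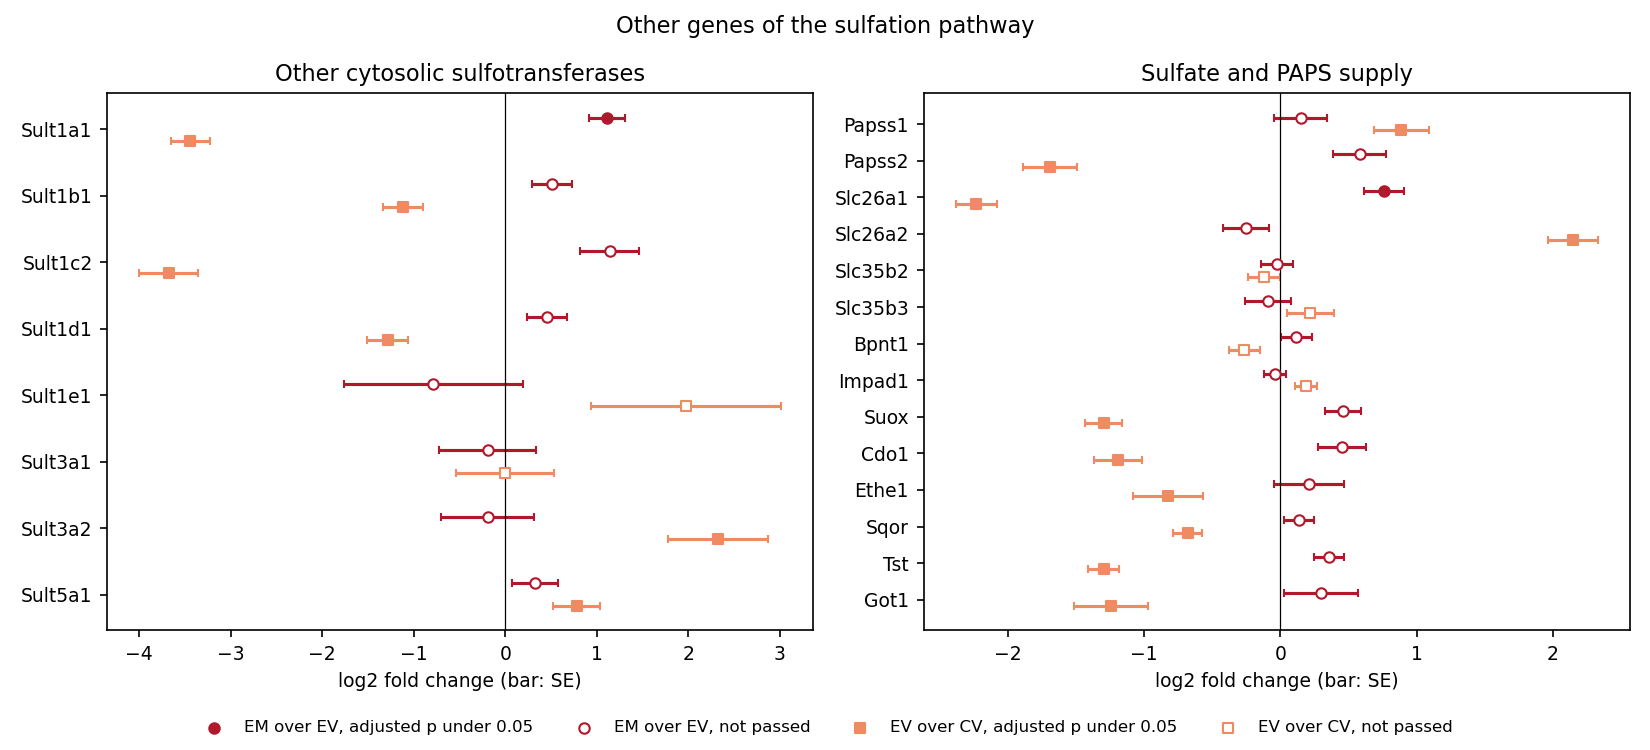
Log2 fold change with SE of the 8 tested cytosolic sulfotransferases outside the Sult2a family (left) and of the 14 tested genes of sulfate and PAPS supply (right), for EM over EV (circles) and EV over CV (squares); filled symbols passed the adjusted p threshold of 0.05. Sult1a1 and Slc26a1 are the filled circles, and Sult1a1, Sult1c2, Slc26a1 and Papss2 lie well below 0 for EV over CV.

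Sulfatases and their activators, which remove sulfate from other substrates, went mostly the other way. In EV over CV 6 of 9 rose and 1 fell (25.5% of all genes rose and 24.9% fell). Arsa, a lysosomal arylsulfatase, led at 2.37 ± 0.14 (edgeR adjusted p = 1.23e-08). Between EM and EV, 0 of 9 passed by edgeR or DESeq2, with 1 at an unadjusted p under 0.05. Of 8 tested carriers of sulfated and free bile acids and steroids, 6 fell and 1 rose in EV over CV, against the same shares of all genes. Slc10a1, the sodium-dependent bile acid importer, fell by 2.44 ± 0.18, Abcb11, the canalicular bile salt pump, by 1.32 ± 0.18, and the conjugate exporter Abcc2 by 1.47 ± 0.13. Abcg2, an exporter of sulfated steroids, rose by 1.21 ± 0.15. Of these 8, 0 passed between EM and EV by edgeR, with 3 at an unadjusted p under 0.05, 1 by DESeq2, 1 without CM replicate 2 and 2 without EM replicate 1.

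The receptors and factors studied as regulators of Sult2a genes were also measured. In EV over CV 9 of 15 fell and 2 rose (24.9% of all genes fell and 25.5% rose). With library totals, however, 2 fell and 5 rose, and 6 of the 15 turned direction, 2 of them among those 9. Nr1i3, which encodes CAR, fell by 1.32 ± 0.21 (edgeR adjusted p = 9.26e-05), and by 0.83 with library totals. Its row holds the mouse identifier and lay at 10.6 to 18.96 CPM in EM, 10.1 to 16.1 in EV, 20.2 to 34.6 in CM and 24.6 to 37.3 in CV. The mice are labelled as humanized for PXR, CAR and CYP3A4/3A7. The table also holds 3 rows with identifiers of the human Ensembl form, which it does not name. Such a row may thus be a receptor or a CYP3A enzyme. One of them, ENSG00000143257, was higher than the mouse row, at 84.5 ± 19.2 CPM in EM, 67.6 ± 7.43 in EV, 204 ± 58.2 in CM and 214 ± 30.9 in CV (SD, n = 4). Another, ENSG00000160868, lay at 1319 to 2173 CPM in EM, 261 to 753 in EV, 1950.5 to 4363 in CM and 749.6 to 2089 in CV. How reads were divided between mouse and human rows is not stated. Rxra, the shared partner of these receptors, fell by 0.73 ± 0.08, and by only 0.25 with library totals. Stat5a, a mediator of growth hormone signalling, rose by 3.45 ± 0.26, and by 3.93 with library totals. Between EM and EV, 0 of 15 passed by edgeR, with 2 at an unadjusted p under 0.05, 1 by DESeq2 and 1 without CM replicate 2, and in CM over CV 0 of 15 passed by edgeR or DESeq2, with 3 at an unadjusted p under 0.05.

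CAR-inducible genes were followed as a list outside the family, and whether MI763F acts through CAR was not tested. In CM over CV 2 of 16 rose (0.0929% of all genes did): Cyp2b10, the classical CAR-induced cytochrome P450, by 1.80 ± 0.26 (edgeR adjusted p = 0.00953) and Cyp2c29 by 1.45 ± 0.20 (edgeR adjusted p = 0.00756), though 0 passed in a fit to these 2 groups alone or without CV replicate 1. At an unadjusted p under 0.05 the count was 11 of 16, and it was 6 by DESeq2. Cyp2b10 had 764, 1691, 920 and 808 CPM in CM, against 250, 339, 339 and 274 CPM in CV. CM replicate 2, with the lowest Sult2a7, was the highest for Cyp2b10. In EM over EV 7 of 16 rose (1.51% of all genes did), among them Cyp2c37 by 2.12 ± 0.23, Cyp2c50 by 2.00 ± 0.27 and Cyp2b10 by 1.66 ± 0.26. In EV over CV 13 of 16 fell (24.9% of all genes did). The difference between the CM over CV response of Cyp2b10 and those of the members was not tested.

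Genes known to be higher in female or male mouse liver moved in opposite directions under EE. Of 17 female-predominant genes tested, 12 fell and 2 rose in EV over CV, and of 12 male-predominant genes 10 rose and 1 fell. Of all genes, 24.9% fell and 25.5% rose. Slc22a26, an organic anion carrier, fell by 8.09 ± 0.41 and Cyp2b9 by 6.77 ± 0.50, while Cyp7b1, an oxysterol hydroxylase, rose by 6.17 ± 0.19 (edgeR adjusted p = 8.77e-12). In EM over EV 5 of 17 female-predominant genes rose (1.51% of all genes did), led by Slc22a26 at 3.51 ± 0.40 (edgeR adjusted p = 0.000401). The count was 2 without EV replicate 2, and 3 without EV replicate 4, EM replicate 2 or EM replicate 3 or with library totals. At the same time 0 of 12 male-predominant genes passed by edgeR, with 4 at an unadjusted p under 0.05, 2 by DESeq2 and 1 or 2 without CV replicate 1, CV replicate 3, CM replicate 2 or EM replicate 1. In CM over CV 0 of 17 and 0 of 12 passed by edgeR, with 5 and 0 at an unadjusted p under 0.05 and 3 and 0 by DESeq2. Cyp2b9 and Cyp2b13 stand in both the female-predominant and the CAR-inducible list.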

How the data were processed

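Per the labels' protocols, poly(A) libraries were prepared with a NEBNext Ultra kit from TRIZOL extracts of liver. STAR, Salmon and GRCm39 are named without versions in the submitters' processing notes, and the sources used here do not give strand handling, annotation or counting. Values are estimated counts deposited by the authors as whole numbers. They were not further rounded. Among 730 genes listed at 0 in a library, the smallest nonzero value had a median of 101.5 below 150 bp of exon length and of 1 above 4000 bp, so the counts are not raw reads and look scaled to gene length. Exon lengths, from GENCODE M21, were available for 82.9% of them. Symbols came from the same annotation (12692 identifiers), and promoters from RefSeq, GRCm38.p6.

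Groups came from the titles. After filterByExpr (12918 genes) and TMM scaling, edgeR 4.0.16 (R 4.3.3) was used for a quasi-likelihood fit (glmQLFit, robust) to all 16 libraries with 12 residual degrees of freedom; p-values were adjusted by Benjamini-Hochberg over all genes tested, with 0.05 as the threshold. TMM factors ran from 1.10 to 1.13 in EM, 1.17 to 1.23 in EV, 0.833 to 0.886 in CM and 0.833 to 0.91 in CV. CPM uses these factors, and the SE is the log2 fold change over the square root of the test statistic. The biological coefficient of variation was 0.284. No pair of libraries shared values in over 3.24% of genes. The members and gene lists were chosen with earlier results of these data known. Named genes were the members, up to 6 passing genes per list and comparison by p (mean log2 CPM 1 or more), of which a part is printed, and the 5 genes most correlated with the family sum. Alternatives were RLE factors, library totals, other filters, DESeq2 1.42.0, only the groups compared, a replicate block and each library left out; leaving out CM replicate 2 together with EM replicate 1 was an alternative added with the data in view. Scripts were tested on simulated counts, and figures were drawn with matplotlib 3.10.9.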

Additional observations from a re-analysis of the deposited data

Results flagged for a closer look

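Each of the 8 members and their sum was examined in each group of 4 for a library far from the other 3, by the gap to its neighbour over the whole range, and chance would single out about 1 of 20 such groups of values. Of 36 groups of values, 3 had such a library. Sult2a4 in EM had replicate 1 at the low end, with 0.857 of the range below the next library (11.2 CPM, next 28.1 CPM). Sult2a4 in EV had replicate 2 at the low end, with 0.875 of the range (2.38 CPM, next 4.71 CPM). Sult2a1 in CV had replicate 3 at the low end, with 0.838 of the range (1288 CPM, next 1620.4 CPM).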

How the results depend on the processing

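The family sums, the member changes and the 31 changes of other genes followed through the same alternatives (those given above with a log2 fold change and an SE) kept their direction under each of them. Other genes of the lists did not all do so: with library totals, 6 of 15 regulators turned direction in EV over CV. The count of Sult2a members passing in CM over CV was 0 in every alternative. The log2 ratio of the family sum for EV over CV was -5.29 and became -4.81 with library totals, which contain no correction for composition, and those of the other comparisons moved by less than the spread between replicates. With library totals 84.1% of the genes passing in EV over CV were higher, against 50.5% with TMM factors; the shares were 59.1% against 89.4% for EM over EV, 86.3% against 51.0% for EM over CM and 85.7% against 50.8% for EM over CV. The count of genes passing in EM over EV was 218, and 127 with library totals, 559 with DESeq2 and 606 without CM replicate 2 and EM replicate 1. The count in CM over CV was 12, and 221 with DESeq2, 2 in a fit to these groups alone and 6 with the replicate number as a block; the cause of these differences was not tested. With 1 library left out at a time, the counts ran from 36 (without EV replicate 2) to 445 (without EM replicate 1) for EM over EV and from 4 (without CV replicate 1) to 39 (without CM replicate 4) for CM over CV. Libraries with the same replicate number shared only a number: the correlation of their deviations from the group means ran from -0.05 to 0.096 over 24 pairs, none over 0.1. The number of libraries, 4 in each group, limits small changes such as those of Sult2a1 and Sult2a2 in CM over CV.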
